A study of Bombus terrestris with 20 samples.

Results

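The gene LOC100644134 encodes the peroxisomal membrane protein PMP34 of the buff-tailed bumblebee, *Bombus terrestris audax*. It was followed as 1 gene of the 10661 listed across 4 expression tables, in 18 libraries of worker tissue and 2 libraries of worker-laid eggs. The tissues were brain, fat body and ovary, each with 3 libraries of ovary-active workers and 3 of ovary-inactive workers. Ovary-active workers had ovaries scored 4 to 6 on an ovary-activation scale and were aged 22 to 34 days. Ovary-inactive workers had ovaries scored 0 to 1 and were aged 24 to 32 days. All tissue donors came from colonies that still held their queen, and no treatment or mutation separated the phenotypes, so differences between the phenotypes were observed and not induced. Age-matched workers of the 2 phenotypes came mostly from different colonies, so phenotype and colony cannot be fully told apart. The paper adds that 1 ovary-inactive brain pool came from colonies obtained later. Each tissue library pooled 7 workers, apart from 1 ovary-inactive brain library that pooled 14, so no value belongs to a single bee. Each egg library pooled 24 eggs aged up to 1 h from small groups of workers. The gene was chosen with its ovary contrast and its egg level already known, so both are given as descriptions without a test.

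PMP34 belongs to the mitochondrial carrier family, also called solute carrier family 25, but sits in the membrane of the peroxisome. In humans the protein, SLC25A17, exchanges cofactors built on adenine nucleotides, among them coenzyme A, across that membrane, and in yeast a related peroxisomal carrier brings in ATP. Peroxisomes shorten very-long-chain and branched fatty acids, make ether lipids and break down hydrogen peroxide, and in insects the fat body, the tissue of lipid storage and yolk protein synthesis, is a main site of fatty acid metabolism. In the honeybee, *Apis mellifera*, the corresponding gene is known as *Anarchy*, from work on workers that lay eggs in the presence of a queen.

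The tissue values were normalized counts, scaled by the authors within each tissue and not divided by gene length, and the depth that the tables show was 23118156 to 34419537 reads per tissue library. At 2089 to 10425 reads per library for LOC100644134, counting error alone was 2.19% or less, below the coefficient of variation of 5.51% to 23.2% between the pools of a group. In the third ovary-inactive brain library every value was a whole multiple of 1 read, whereas in each of the other 17 tissue libraries 59.8% to 60.7% of values were. Why it differed is not stated. Brain values, levels across tissues and the search for similar profiles are given with and without that library. Brain and ovary labels were checked against marker genes, means being given for ovary-active and then ovary-inactive workers. Because of the scaling within each tissue, these means compare tissues only roughly. The neuronal acetylcholine receptor subunit alpha-7 (LOC100643274) averaged 203 and 222 normalized counts in ovary-active and ovary-inactive brain, against 2.80 and 7.39 in ovary and was not listed in fat body. The other neuronal markers did not separate brain from ovary: syntaxin-1A (LOC100643945) averaged 11096 and 11482 in brain against 5328 and 14773 in ovary, and CUGBP Elav-like 2 (LOC100644765) 635 and 612 in brain against 4007 and 6860 in ovary. The germline RNA-binding protein bicaudal C (LOC100642983) averaged 46850 and 27221 in ovary-active and ovary-inactive ovary, and no more than 3280 in either phenotype of brain or fat body. The other germline markers separated ovary from brain less: tudor (LOC100644474), a germ plasm scaffold, averaged 5302 and 4972 in ovary against 4057 and 4085 in brain, and the piwi protein Ago3 (LOC100644656) 2315 and 5238 in ovary against 1099 and 1098 in brain. Vitellogenin and the other defining fat body genes were not among the genes that carried a name in the sources used here, so the fat body label was not checked.

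In ovary, LOC100644134 was higher in every ovary-active library than in any ovary-inactive library. Its normalized counts were 5959, 7082 and 9364 in the 3 ovary-active libraries, against 2441, 3157 and 2112 in the 3 ovary-inactive libraries. The groups did not overlap, the lowest ovary-active library standing 1.89 times above the highest ovary-inactive one. The means were 7468 ± 1735 in ovary-active and 2570 ± 534 in ovary-inactive ovary (SD, n = 3 each), a log2 fold change of 1.53 (SE 0.21), or 2.90-fold. For scale, 53.9% of the 9496 genes tested in ovary passed an adjusted p of 0.05 in limma with Benjamini-Hochberg adjustment, 27.3% higher and 26.7% lower in ovary-active workers, and nothing is read from that share for a gene chosen on this contrast. Of the calls, 50.6% were higher in ovary-active workers, and 29.4% with every library brought to the same total. The value depended in part on scaling. Under that second scaling the log2 fold change was 1.20 and the median of all genes was -0.31. Relative to that median the difference was 1.51, as it was under the deposited scaling, which follows from moving all genes together. In pooled tissue, fewer cells of a type and less RNA per cell cannot be told apart. According to the paper, active ovaries also hold eggs, whereas ovaries of ovary-inactive workers hold none. For that reason the study set genes expressed in eggs aside from its main list for ovary-active ovary, and LOC100644134 was among them. The study's supplement names expression in eggs as a possible source of the ovary difference of this gene. The part of eggs in that difference was not tested.

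**Figure D1:**
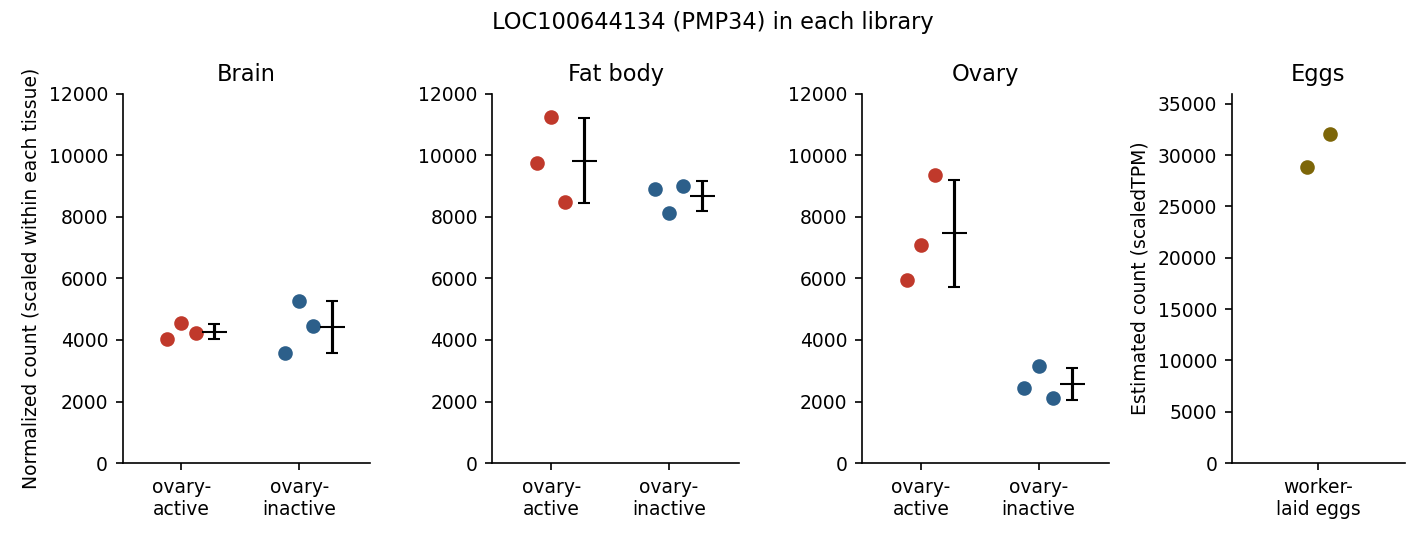
LOC100644134 in each library. Points are libraries, horizontal bars with whiskers are means ± SD (n = 3), and the y axes give normalized counts in brain, fat body and ovary and estimated counts in eggs, where no mean is drawn. The 3 ovary-active ovary libraries lie between 5959 and 9364 and the 3 ovary-inactive ones between 2112 and 3157, while the phenotypes overlap in brain and fat body.

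Genes of several marker lists also differed with ovary phenotype, in both directions. The summed normalized count of the 3 germline genes on the list ranged from 44176 to 64844 in ovary-active ovary and from 31414 to 44139 in ovary-inactive ovary, all 3 being above 0 in every library. Of these, bicaudal C rose in ovary-active ovary (log2 fold change 0.79, limma adjusted p = 0.0246) and Ago3, which guards the germline genome against transposons, fell (-1.17, adjusted p = 7.9e-04). Tudor had a log2 fold change of 0.08 (adjusted p = 0.809). The summed count of 8 muscle genes was 33622 to 40980 in ovary-active and 48436 to 70046 in ovary-inactive ovary. By the test 5 were lower and 1 higher, beside 26.7% of all genes lower and 27.3% higher. The most abundant of the 8, a titin gene (LOC100642686), averaged 18936 and 15289 in ovary and was not called (0.33, adjusted p = 0.215). It averaged 22008 and 23767 in brain, where the list summed to 23843 to 39005 in ovary-inactive workers, so the list was not specific to muscle tissue. The summed count of 3 neuronal markers was 8526 to 10026 in ovary-active and 20522 to 22997 in ovary-inactive ovary, although its most specific member, the acetylcholine receptor subunit, was near 0 in both. Of 3 genes matched by the terms of the fat body list, melanotransferrin (LOC100644446) rose (1.02, adjusted p = 0.00284), and their sum was 14847 to 19273 in ovary-active and 12647 to 15913 in ovary-inactive ovary. The part of cell composition in the ovary difference of LOC100644134 was not tested.

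In fat body no difference between phenotypes passed the test. LOC100644134 had 9751, 11239 and 8477 normalized counts in the ovary-active fat body libraries, against 8909, 8122 and 8985 in the ovary-inactive ones. The groups overlapped, with the widest spread among ovary-active pools. Means were 9822 ± 1383 in ovary-active and 8672 ± 478 in ovary-inactive fat body (SD, n = 3 each), a log2 fold change of 0.17 (SE 0.11, 95% confidence interval -0.09 to 0.43, limma adjusted p = 0.367). The interval runs from 0.940-fold to 1.35-fold, so folds above 1.35 in fat body lie outside it. Of the 8850 genes tested in fat body, 2.93% were called. Summed marker counts in fat body were 4440 to 5049 in ovary-active and 5088 to 5677 in ovary-inactive workers for the germline list, and 1886 to 2477 in ovary-active and 2749 to 3184 in ovary-inactive workers for the neuronal list. For the fat body list they were 16095 to 17047 in ovary-active and 14469 to 15116 in ovary-inactive workers. For the muscle list they were 10791 to 14166 in ovary-active and 11344 to 18959 in ovary-inactive workers. Most of the fat body list sum was neutral alpha-glucosidase AB (LOC100644473), averaging 15983 and 14396 in fat body against 13428 and 12171 in ovary. Transferrin receptor protein 1 (LOC100642448) averaged 158 and 151 in fat body against 415 and 572 in ovary. Melanotransferrin averaged 362 and 329 against 3536 and 1710, so this list did not mark fat body. The sums lay apart for the germline and neuronal lists, lower in ovary-active workers, and for the fat body list, higher in ovary-active workers. They overlapped for muscle. By the test 0 genes of the germline, neuronal and fat body lists were called in fat body. In the muscle list 1 gene was called lower, beside 2.93% of all genes called in either direction. How many of all genes separate in this way was not computed. The part of these markers in the values of LOC100644134 was not tested.

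In brain the 2 phenotypes lay close together. LOC100644134 had 4042, 4545 and 4234 normalized counts in the ovary-active brain libraries, against 3575, 5259 and 4467 in the ovary-inactive ones. Every ovary-active value fell inside the range of the ovary-inactive ones. Means were 4274 ± 254 in ovary-active and 4434 ± 842 in ovary-inactive brain (SD, n = 3 each), a log2 fold change of -0.04 (SE 0.15, 95% confidence interval -0.39 to 0.32, limma adjusted p = 1.0). Without the third ovary-inactive library it was -0.02, and its sign turned, at 0.10, without the second. Without the first it was -0.18 (SE 0.10). The paper pairs the pool from later colonies with the first ovary-active brain pool, so that pool may be the first ovary-inactive library. The study's supplement lists the pool of 14 workers as brain replicate 2, paired with the second ovary-active brain pool. No sample label repeats this. In brain 0.0211% of the 9490 genes tested were called.

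Because the authors scaled each tissue separately, levels were set across tissues as normalized counts per 1000000 of each library. On this scale LOC100644134 averaged 333 ± 52.7 in ovary-active and 299 ± 21.3 in ovary-inactive fat body. Ovary-active ovary followed at 248 ± 41.1, then ovary-inactive brain at 180 ± 34.4 and ovary-active brain at 162 ± 18.8. Ovary-inactive ovary was lowest at 108 ± 21.0 (SD, n = 3 in each of the 6 groups). Each group overlapped with its neighbour in this order, with 1 exception: every ovary-active brain library was above every ovary-inactive ovary library. Without the third ovary-inactive brain library, the other libraries of that group were at 144 and 212, their mean was 178, and the order of the groups was the same. The ovary thus held both a group next to fat body and the lowest group of all.

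The step between fat body and ovary depended on the scaling. The 10 most abundant genes took 27.8% to 31.4% of a fat body library, against 4.17% to 12.8% of an ovary library and 8.38% to 23.9% of a brain library. The part of these genes in the order was not tested. When all 18 libraries were brought to 1 median-of-ratios scaling, an alternative chosen after seeing the data, the order of the 6 groups was the same. The means were then 14934 ± 2112 in ovary-active fat body, 13024 ± 674 in ovary-inactive fat body and 5567 ± 1243 in ovary-active ovary. On this scale ovary-active ovary was 2.34 times below ovary-inactive fat body with no overlap, whereas in counts per 1000000 the ratio of the means was 1.20 and the libraries overlapped.

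**Figure D2:**
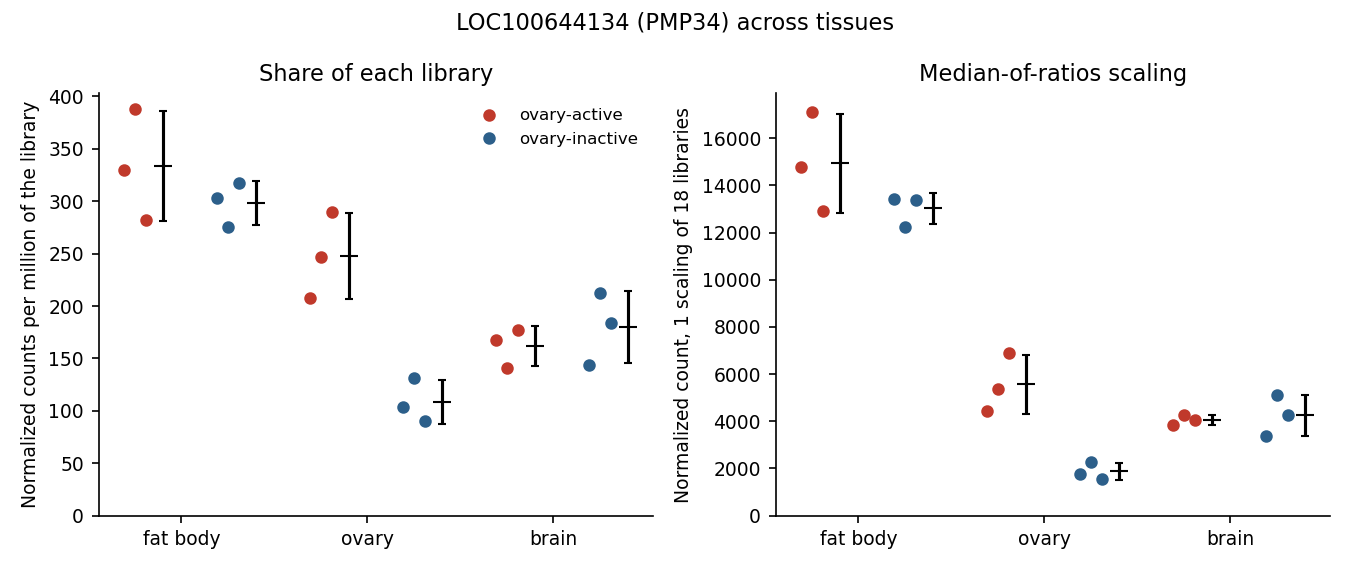
LOC100644134 across tissues under 2 scalings. Points are libraries and bars with whiskers are means ± SD (n = 3). The left panel gives normalized counts per 1000000 of the library and the right panel a single scaling of all 18 libraries. Fat body is highest and ovary-inactive ovary lowest in both, but the gap between fat body and ovary-active ovary is 1.20-fold on the left and 2.34-fold on the right, taking ovary-inactive fat body.

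Worker-laid eggs held the transcript at a high level. The estimated count was 28801 and 32100 in the 2 egg libraries, whose depths were 50166010 and 52324103 reads. These values are scaled per transcript length, so genes can be ranked within a library, and they amount to 574 and 613 transcripts per 1000000 (TPM) against 21.6 and 17.4 TPM for the median gene. LOC100644134 ranked 301 and 275 among the 10661 listed genes, within the top 2.82% and 2.58%. Its zFPKM, which places log2 abundance in SD units around the main peak of expressed genes, was 1.74 and 1.72, far over the threshold of -3 used by the study to call a gene expressed. The 2 egg libraries differed in the muscle gene troponin I (LOC100642480), with 7235 estimated counts in the first and 30.3 in the second, and in 1 titin gene (LOC100642449), with 347 and 0. Other genes of the muscle list differed less, such as twitchin (LOC100644118) with 237 and 212 and the titin gene LOC100643650 with 524 and 575. Egg and ovary values are in different units and come from different sequencing providers, so no fold change between them was computed. How much of the level in ovary-active ovary came from eggs inside the ovary was not tested.

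The other genes of the pathway were taken from 4 lists with 14 members, limited to genes that carried a name in the sources used here: 4 in peroxisome biogenesis, 2 further membrane proteins, 2 enzymes and 6 carriers of the family to which PMP34 belongs. All 14 passed the filter on low values in each tissue. In ovary 2 rose and 4 fell in ovary-active workers, so 6 of 14 were called (3 without ovary-inactive library 1), beside 53.9% of all genes tested, and the list median was a log2 fold change of -0.02, beside 0.02 for all genes. In fat body 0 rose and 1 fell, beside 0.96% of all genes higher and 1.97% lower by the test, and 0 of 14 were called with the replicate number as a block, under which 63 genes in all were called in fat body against 259 without it. In the fit without the block the fat body list median was 0.02, beside 0.00. In brain 0 of 14 were called by limma, DESeq2 or edgeR, beside 0.0211% of all genes called by limma. At an unadjusted p under 0.05 there were 0 of the 14 and 105 of all 9490 genes. The 2 that rose in ovary were not called with every library at the same total. The phenotype difference itself differed between ovary and fat body for 7 of the 14, beside 38.7% of the 8705 genes tested for it. That fit took the libraries of the tissues as independent, without regard to shared workers.

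Among membrane proteins, peroxisomal membrane protein 2 (LOC100643478), a pore-forming protein in mammals, averaged 2022 in ovary-active and 1463 in ovary-inactive ovary, a log2 fold change of 0.46 (adjusted p = 0.0207). That call was lost with every library at the same total (0.13, adjusted p = 0.422), and also without ovary-active library 1 (adjusted p = 0.0602), ovary-inactive library 1 (0.0725) or ovary-inactive library 3 (0.0729), and with the replicate number as a block (0.0693). Peroxisomal membrane protein 11C (LOC100644754), of a family that acts in peroxisome division, moved the other way. It had 578, 473 and 654 normalized counts in ovary-active ovary, against 2359, 898 and 1502 in ovary-inactive ovary, and fell by 1.38 on the log2 scale (SE 0.33, adjusted p = 0.0098).

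Among biogenesis genes, PEX16 (LOC100642431), which in humans is needed to place proteins in new peroxisomal membrane, fell in ovary-active ovary. It had 65.0, 74.2 and 16.6 normalized counts there, against 218, 157 and 179 in ovary-inactive ovary. The groups were apart although the counts were low, and the log2 fold change was -2.05 (SE 0.55, limma adjusted p = 0.0149, and 0.0517 without ovary-inactive library 1). Peroxisome assembly protein 12 (LOC100642829), a ubiquitin ligase that recycles the import receptor, averaged 936 in ovary-active and 479 in ovary-inactive ovary, a log2 fold change of 0.90 (SE 0.26, adjusted p = 0.0208). Its call was lost without ovary-inactive library 1 or 3, with an adjusted p of at most 0.0589, and with every library at the same total, where the log2 fold change was 0.57 (adjusted p = 0.0688).

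Of the enzymes, alpha-methylacyl-CoA racemase (LOC100644007), which prepares branched fatty acids for oxidation, fell in ovary-active ovary. It had 428, 376 and 357 normalized counts in ovary-active ovary, against 842, 770 and 778 in ovary-inactive ovary, a log2 fold change of -1.04 (SE 0.17, limma adjusted p = 0.00182). Every ovary-active library was below every ovary-inactive one. Acyl-CoA oxidase 1 (LOC100644825), the first enzyme of peroxisomal fatty acid oxidation, had a log2 fold change of 0.15 (SE 0.20, adjusted p = 0.55) with overlapping groups.

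Among carriers, Rim2 (LOC100644153), a mitochondrial carrier of pyrimidine nucleotides in yeast, had the lowest log2 fold change of the 14 genes. It had 1624, 1441 and 1310 normalized counts in ovary-active ovary, against 7539, 4872 and 6885 in ovary-inactive ovary, and fell by 2.12 on the log2 scale (SE 0.18, limma adjusted p = 1.8e-04). No library of either group came near the other group. Aralar1 (LOC100643914), the mitochondrial aspartate-glutamate carrier, was the only list member called outside ovary. It had 2500, 2297 and 2810 normalized counts in ovary-active fat body, against 3910, 4365 and 3578 in ovary-inactive fat body, a log2 fold change of -0.64 (SE 0.11, adjusted p = 0.0247). The call was lost on leaving out ovary-active library 1 (adjusted p = 0.103), ovary-active library 2 (0.0992), ovary-inactive library 1 (0.0537) or ovary-inactive library 2 (0.0865), and with the replicate number as a block (0.0965).

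**Figure D3:**
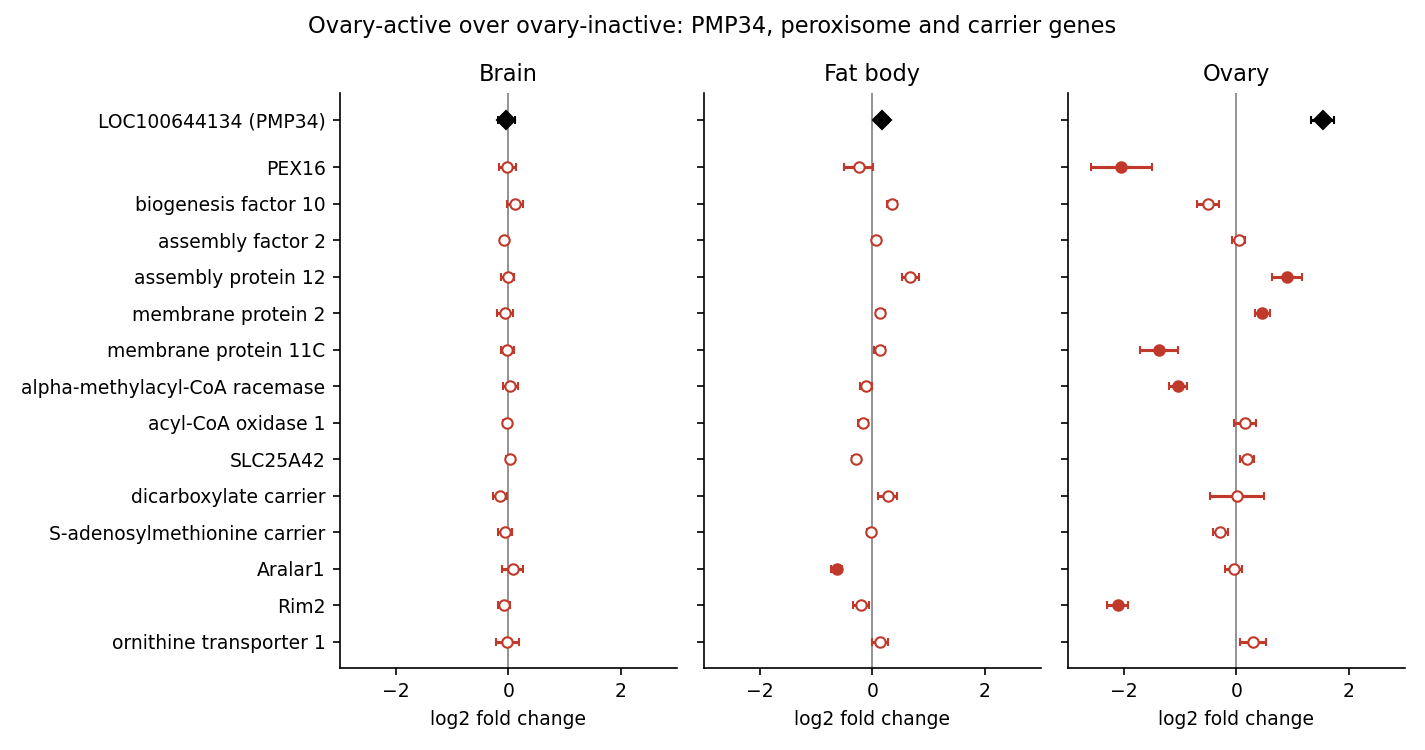
Log2 fold change of ovary-active over ovary-inactive workers for LOC100644134 (black diamond, no call drawn) and the 14 peroxisome and carrier genes, in brain, fat body and ovary. Points are limma estimates with SE whiskers, and filled points are those with an adjusted p under 0.05. LOC100644134 stands at 1.53 in ovary, and the 6 called genes there lie between -2.12 and 0.90, the 2 above 0 not being called with every library at the same total.

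In eggs 13 of the 14 list genes passed the zFPKM threshold, beside 7828 of all 10661 genes. The exception was PEX16, at -3.31 in both libraries. None of the 14 reached the level of LOC100644134. Peroxisome assembly factor 2 (LOC100642792), an ATPase that pulls the import receptor from the membrane, came nearest at 72.7 and 65.2 TPM. Acyl-CoA oxidase 1 was at 13.0 and 6.31 TPM and the racemase at 9.09 and 7.22 TPM. LOC100644134 thus lay more than 5 times above each of the 14 list genes in both egg libraries.

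**Figure D4:**
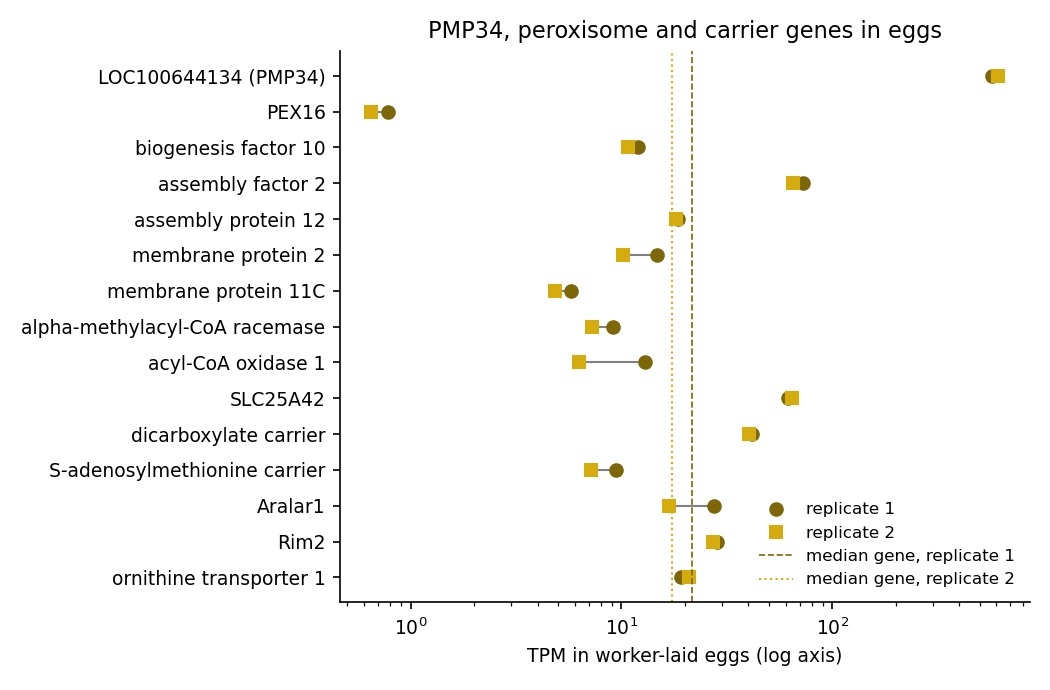
TPM in the 2 egg libraries for LOC100644134 and the 14 peroxisome and carrier genes, on a log axis. Circles and squares are libraries 1 and 2, and vertical lines mark the median gene of each. LOC100644134 is at 574 and 613 TPM, and the nearest list gene at 72.7 and 65.2 TPM.

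The genes with the profile most like that of LOC100644134 were sought by Pearson correlation of log2(normalized counts per 1000000 + 1) over the 18 tissue libraries, among 8585 other genes. These points share libraries, tissues and depth, so the coefficients describe a likeness only. The 6 nearest were LOC100649547 (r = 0.964), LOC100646181 (0.963), LOC100647258 (0.948), LOC100643526 (0.946), LOC100649710 (0.943) and LOC105666332 (0.940). Of these, LOC100643526 encodes thioredoxin-2, a small protein that reduces disulphide bonds, and the other 5 carried no name in the sources used here. In all, 29 genes had r of 0.9 or more and the median r was -0.54. All 6 were more abundant in ovary-active than ovary-inactive ovary, with log2 fold changes of 0.99 to 1.94 (limma adjusted p 3.2e-04 to 0.00323), a contrast that the choice by likeness itself used. All 6 passed the egg threshold, as did 85.7% of the 8585 genes compared, from 70.9 and 85.7 TPM for LOC105666332 to 772 and 644 TPM for LOC100646181.

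LOC100646181 had the largest ovary difference of the 6, with 16154, 16116 and 16541 normalized counts in ovary-active ovary, against 3437, 6099 and 3615 in ovary-inactive ovary. Thioredoxin-2 had 18667, 17744 and 21515 in ovary-active ovary, against 9507, 11222 and 7907 in ovary-inactive ovary. The groups were apart for both. Without the third ovary-inactive brain library the nearest 6 genes were the same 6. Under other settings the nearest genes changed: of the 6, 2 stayed among the nearest 6 by Spearman correlation, 1 without the brain libraries, and 0 without fat body, without ovary or after centring each tissue on its mean. No list gene came close, the highest r being 0.57 for peroxisomal membrane protein 2, and Rim2 had -0.95.

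**Figure D5:**
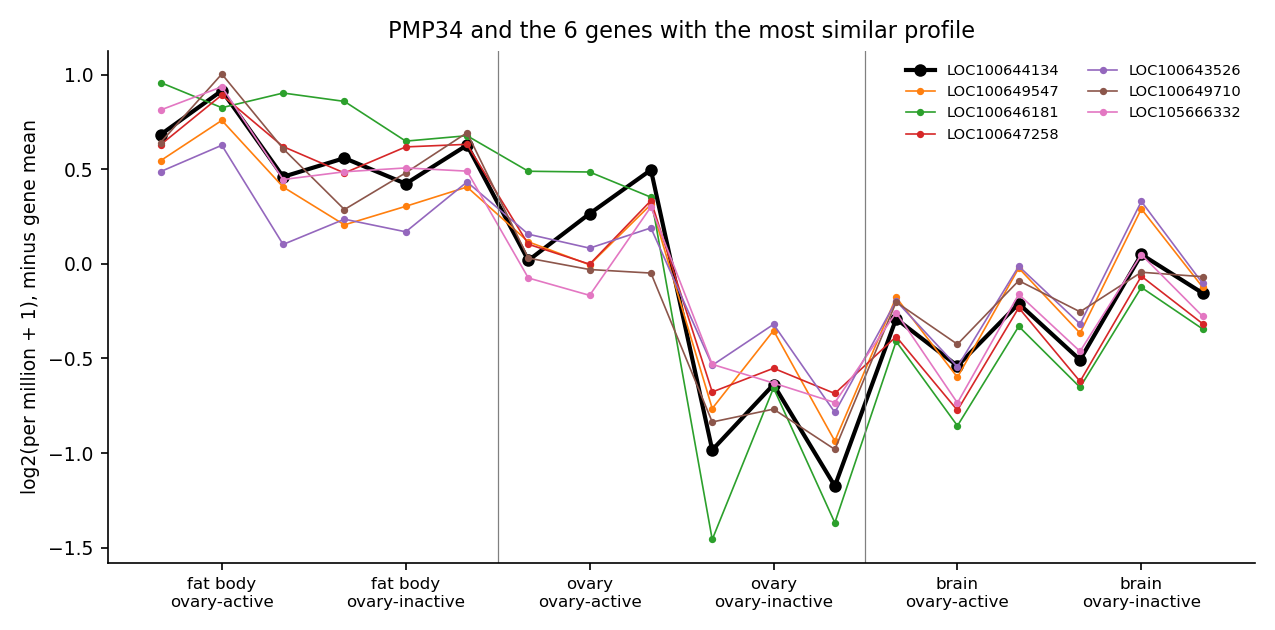
Profile of LOC100644134 (thick black line) and the 6 nearest genes over the 18 tissue libraries. The y axis gives log2(normalized counts per 1000000 + 1) minus the mean of the gene, and the x axis groups libraries by tissue and phenotype, 3 each. All 7 genes are lowest or near their lowest in ovary-inactive ovary and highest in fat body.

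The neighbours of LOC100644134 on its chromosome, in the gene order of the RefSeq annotation of assembly iyBomTerr1.2, differed among themselves. Only protein-coding genes were counted as neighbours. The nearest gene before it, LOC100649378, had a log2 fold change of 0.11 in ovary (limma adjusted p = 0.769). The first gene after it, LOC100649500, rose in ovary-active ovary by 2.41 (adjusted p = 0.00162), but was at 1.92 and 2.33 TPM in eggs. The second after it, LOC100644442, an uncharacterized protein, rose by 1.22 (adjusted p = 0.0028) and was at 153 and 156 TPM in eggs, and the third, LOC100649623, was at -0.38 (adjusted p = 0.051). That annotation gives LOC100644134 3 transcripts and places a long non-coding RNA, LOC110119405, over the same stretch. The long non-coding RNA is not among the 10661 listed genes and so could not be analysed here. The libraries were made with a stranded kit, and no source read here says whether strand was used in counting. Reads shared between the 2 genes therefore cannot be told apart.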

How the data were processed

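For 18 tissue libraries the authors pseudoaligned single-end 50-base reads from 3 lanes per library to the Bter_1.0 transcriptome with kallisto 0.46.1, summarised them per gene and normalized them within each tissue in DESeq2 1.34.0 under R 4.1.3. The deposited tissue values are a normalized signal, in counts adjusted for transcript length. For eggs the authors scaled TPM up to the depth of each library, and the deposited values are these estimated counts. Gene names came from the portion of the study's supplementary tables held here, which named 2219 of 10661 genes, because the deposited tables give symbols only. Of the symbols, 9891 were found in RefSeq. A gene of the membrane list is not reported here. Planned naming of carriers by protein identity was not possible without a protein table.

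Within each tissue, log2(normalized count + 1) was fitted in limma 3.58.1 (trend, no covariate) for genes with a mean of at least 10 over 6 libraries, and an adjusted p under 0.05 (Benjamini-Hochberg over all genes tested) was called. Fold changes are on the log2(value + 1) scale. Pools were treated as independent replicates, so the main fit left out the age pairs. The zFPKM was recomputed from the egg values. Whole reads (within 0.02 of a whole multiple) were recovered for about 60% of genes, to which DESeq2 1.42.0 and edgeR 4.0.16 were applied, as also to all values divided by the worth of 1 read and rounded. LOC100644134 was not among the whole-read genes. The difference between tissues was fitted in limma over 12 libraries. The fits were tested on simulated data. Alternatives were pseudocounts of 0.5 and 5, no filter, same totals, TMM, leaving out libraries, a replicate block and 1 fit of all 18 libraries. Named by rule were LOC100644134, called list members and the 6 nearest profiles. Called list members were taken at most 3 per direction and list in ovary, and all in fat body and brain. Some uncalled list members, marker genes and chromosome neighbours were named besides. The gene, the lists and the markers were chosen with earlier results of these data known.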

Additional observations from a re-analysis of the deposited data

Results flagged for a closer look

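The phenotype difference of 7 of the 14 peroxisome and carrier genes differed between ovary and fat body in a limma fit over 12 libraries, beside 38.7% of all 8705 genes tested. The paper describes fat body and ovary pools together, with the same numbers of workers and colonies, the same ages and the same pool numbers. The fit took the libraries as independent, so its adjusted p-values ignore workers shared between the tissues. Below, each difference is the ovary-active over ovary-inactive log2 fold change in ovary minus that in fat body, with the limma adjusted p. It was -1.81 for PEX16 (LOC100642431, adjusted p = 0.0472), which had -2.05 in ovary and -0.24 in fat body. Peroxisome biogenesis factor 10 (LOC100642521), a ubiquitin ligase of the import machinery, differed by -0.85 (adjusted p = 0.00548), with -0.51 in ovary and 0.34 in fat body, neither of which was called alone. For peroxisomal membrane protein 11C (LOC100644754) it was -1.51 (adjusted p = 0.00866). The racemase (LOC100644007) differed by -0.93 (adjusted p = 0.00101) and Rim2 (LOC100644153) by -1.92 (adjusted p = 2.0e-04). The mitochondrial coenzyme A carrier SLC25A42 (LOC100642553) differed by 0.49 (adjusted p = 0.0112), with 0.19 in ovary and -0.29 in fat body. Aralar1 (LOC100643914) differed by 0.59 (adjusted p = 0.024), with -0.05 in ovary and -0.64 in fat body. For LOC100644134 itself the same difference was not tested, because the ovary contrast chose it.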

How the results depend on the processing

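The log2 fold change of LOC100644134 was positive under all 15 alternatives in ovary (1.20 with libraries at the same total, 1.36 to 1.69 leaving out 1 library) and in fat body (0.07 to 0.27 leaving out 1 library). In brain leaving out 1 library gave -0.18 to 0.10, with the sign turned without ovary-active library 1 (0.00255) and without ovary-inactive library 2 (0.10). Its zFPKM in eggs was 1.74 and 1.72 in the single libraries. A plain percentile is on another scale and was given in the report only.

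Genes called in brain numbered 2, and 4 with same totals, 6 with DESeq2 on whole-read genes, 5 with DESeq2 on length-adjusted reads (chosen after seeing the data) and 0 whichever 1 library was left out. In fat body 259 were called, against 441 with same totals, 470 with DESeq2 and 101 with edgeR on whole-read genes, 1006 with DESeq2 on length-adjusted reads, 162 in the fit of all 18 libraries and 41 to 528 without 1 library. In ovary 5123 were called, against 3017 with DESeq2 and 2812 with edgeR on the fewer whole-read genes, and 3848 to 5197 without 1 library. With same totals, 29.4% of ovary calls were higher in ovary-active workers, against 50.6% as deposited. List genes called in fat body numbered 1, but 0 with edgeR on whole-read genes, which held 9 of the 14, 4 with DESeq2 on length-adjusted reads, 0 in the fit of all 18 libraries and 0 to 2 without 1 library. In ovary 6 list genes were called, and 3 to 7 without 1 library. The causes were not tested.

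The study's supplement pairs pools of the 2 phenotypes by age and lists them as biological replicates 1 to 3. The study's own model had no block, and neither had the main fit here. No sample label repeats the pairs. Same-numbered libraries did not deviate together (r from -0.24 to 0.25), which cannot settle whether the pairing can be left out. With the replicate number as a block, the calls in brain fell to 0, those in fat body to 63 and those in ovary to 4182, and no list gene (0 of 14) was called in fat body. In ovary peroxisomal membrane protein 2 lost its call (limma adjusted p = 0.0693).

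With 3 pools per group, small differences in brain and fat body were not detectable.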
